A study of Homo sapiens with 6 samples.

Results

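The mitochondrial genome encodes 37 genes in the deposited table, chosen here as the rows whose symbol starts with MT-, out of 60624 rows. They comprise 13 mRNAs, 2 rRNAs and 22 tRNAs, and all 37 lay on the mitochondrial chromosome in GENCODE 29. They were measured in SV-HUC-1, an established human urothelial line immortalised with SV40. Poly(A)-selected RNA was sequenced from 3 control libraries, kept in a blank solution, and 3 libraries exposed to 2,6-dichloro-1,4-benzoquinone (DCBQ), each for 3 days. DCBQ is a halogenated quinone formed when drinking water is disinfected, and the labels give no concentration. No genotype or other agent separates the groups, and all 6 libraries come from the same line.

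Human mitochondrial DNA is a small circle that is transcribed from both strands into long precursors. The precursors are cut into rRNAs, tRNAs and mRNAs, largely at the tRNAs that lie between the longer genes, an arrangement known as tRNA punctuation. All 13 proteins are core subunits of the respiratory chain or of ATP synthase, and the rRNAs and tRNAs serve the mitochondrial ribosome that makes them. In urothelium, as elsewhere, these complexes are completed by many subunits made from nuclear genes. The annotation places 28 of the genes on the plus strand (12 mRNAs, both rRNAs and 14 tRNAs) and 9 on the minus strand (MT-ND6 and 8 tRNAs), between positions 577 and 16023 of chromosome M in GRCh38 (hg38).

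The values are TPM, which scales reads for gene length and sets every library to a total of 1000000, so the sequencing depth is unknown. Between 26874 and 27350 rows were above 0 in a library. Of 12 epithelial and urothelial markers 10 had a mean TPM of at least 1, while TP63 was near 0 and UPK3A was listed at 0. The summed level of these 12 was 2973 to 3126 TPM in control and 4849 to 5097 TPM in DCBQ. Most of this sum was KRT8, KRT18 and KRT19. The means of EPCAM (238 in control and 236 TPM in DCBQ), CDH1 (189 and 175), PPARG (58.1 and 61.8) and UPK2 (15.1 and 16.6) were close. The other 6 of the 10 had higher means in DCBQ. None of 10 markers of blood, endothelial, stromal and muscle cells reached a mean of 1 TPM, the stromal markers COL1A2, COL3A1, DCN and LUM were at 0 in every library, and the sum of the 10 stayed between 0.0489 and 0.458 TPM. The labels do not say whether the 3 libraries of each group were grown separately. The p-values therefore measure library-to-library spread alone, part or all of which may be technical. Control replicate 3 stood apart in 6 tRNA genes (MT-TK, MT-TR, MT-TH, MT-TS2, MT-TL2 and MT-TE), where it was under 80% of the mean of controls 1 and 2; in the other 16 it lay between 83.1% and 110%. What sets this library apart was not tested.

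The sequences of 6 tRNA genes are given first, namely the 3 with the largest rises, the pair with the largest decreases and the most abundant, since the results turn on their size and position. Each is written 5′ to 3′ on its own strand, from the GENCODE 29 transcripts (GRCh38), with the anticodon in capitals. MT-TF (phenylalanine) and MT-TL1 (leucine, UUR codons) stand at the start of the plus-strand genes and after the rRNAs, and MT-TC (cysteine) is the most abundant tRNA row. MT-TH (histidine), MT-TS2 (serine, AGY codons) and MT-TL2 (leucine, CUN codons) follow each other without a gap between MT-ND4 and MT-ND5.
MT-TF, chrM:577-647, plus strand: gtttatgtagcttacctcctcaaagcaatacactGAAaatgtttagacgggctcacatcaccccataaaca
MT-TL1, chrM:3230-3304, plus strand: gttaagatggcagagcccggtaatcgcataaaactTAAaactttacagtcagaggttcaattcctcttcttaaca
MT-TC, chrM:5761-5826, minus strand: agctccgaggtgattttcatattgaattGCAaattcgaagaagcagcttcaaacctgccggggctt
MT-TH, chrM:12138-12206, plus strand: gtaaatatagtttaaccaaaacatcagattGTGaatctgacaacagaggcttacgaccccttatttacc
MT-TS2, chrM:12207-12265, plus strand: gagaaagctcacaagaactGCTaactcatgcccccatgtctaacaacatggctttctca
MT-TL2, chrM:12266-12336, plus strand: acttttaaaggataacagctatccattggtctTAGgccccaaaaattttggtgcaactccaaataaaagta
The 22 tRNA genes are 59 to 75 bases long, shorter than the 100 to 200 nt fragments from which the libraries were made. A fragment of that range over a tRNA gene also holds neighbouring sequence, and how much of each tRNA value comes from mature tRNA was not tested. The use of strand in counting is not given in the sources used here, so RNA of the opposite strand cannot be told apart at any of the 37 genes.

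Exposure to DCBQ went with a larger share of mitochondrially encoded mRNA and a changed balance among the 37 genes. The 37 genes took 21.4%, 22.2% and 20.9% of TPM in control libraries 1 to 3 and 28.8%, 28.6% and 28.0% in DCBQ libraries 1 to 3. The groups stood apart, at 21.5% ± 0.64 against 28.4% ± 0.42 (SD, n = 3 per group), a ratio of 1.32. The mRNAs went from 17.0% ± 0.45 to 24.1% ± 0.33, a ratio of 1.42, and their gain of 7.07 percentage points was as large as the 6.94 points of all 37 genes. The rRNAs went from 1.94% ± 0.063 to 1.72% ± 0.16, with no overlap between groups. The tRNA genes summed to 2.52% ± 0.13 in control and 2.62% ± 0.061 in DCBQ, and these ranges overlapped. A share of TPM cannot tell more mitochondrial RNA apart from less nuclear mRNA, nor a change in every cell apart from a change in the mix of cells. In every library MT-CO2 was the most abundant row, and all 13 mRNAs were among the 20 most abundant.

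**Figure D1:**
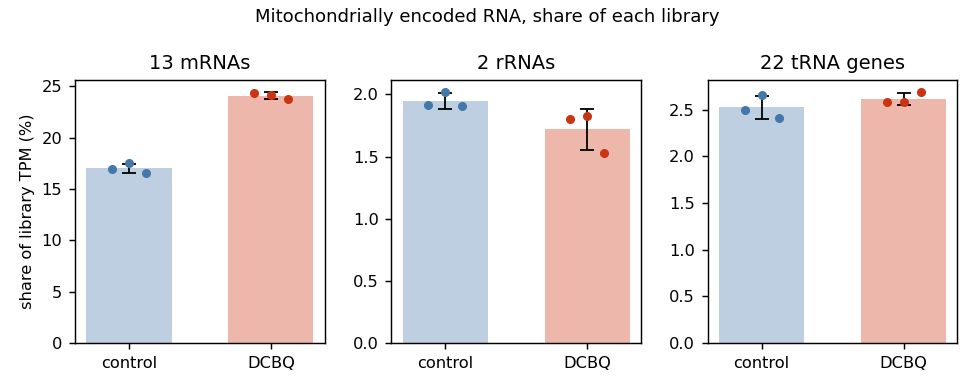
Share of each library's TPM (%, y axis, each panel from 0) taken by the 13 mRNAs, the 2 rRNAs and the 22 tRNA genes. Bars are group means, lines the SD and points the 3 libraries of a group; the mRNA share goes from 17.0% to 24.1%, while the tRNA shares overlap at 2.52% and 2.62%.

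All 37 genes passed the expression filter, a mean of at least 1 TPM, and were tested on log2(TPM + 1) with limma among 16734 genes. At an adjusted p under 0.05 (Benjamini-Hochberg), 24 were called higher in TPM in the DCBQ libraries and 9 lower, and 4 missed the threshold. Of all tested genes 52.9% were called, 13.4% higher and 39.5% lower, so the share called higher among the mitochondrial genes lay far above the background and the share called lower below it. Groups did not overlap for 33 of the 37 (24 higher, 9 lower), against 61.2% of all tested genes (16.0% higher, 45.2% lower). The median log2 difference was 0.45 over the 37 and -0.21 over all tested genes. Median-of-ratios scaling, which moves the median of all genes by 0.21, called 26 of the 37 higher and 3 lower. Scaling to the nuclear total called 25 and 6, and quantile normalization, which forces the most abundant rows of all libraries to shared values, 18 and 8 (mRNAs 6 and 1).

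Complex I, the NADH dehydrogenase that feeds electrons into the chain, draws 7 subunits from this genome, and 6 of the 7 mRNAs rose (3 of 7 under quantile normalization). MT-ND1, which encodes a membrane subunit next to the ubiquinone site, did not pass the test. It had 13439, 14158 and 13923 TPM in control and 13701, 13328 and 13164 TPM in DCBQ, a log2 difference of -0.047 (SE 0.043, limma adjusted p = 0.39), with overlapping groups. It turned positive, still uncalled, under median-of-ratios scaling (0.20) and scaling to the nuclear total (0.087), and was called lower under quantile normalization (-0.48, adjusted p = 0.00018). MT-ND2, a proton-pumping subunit, had 7872, 8128 and 7972 TPM in control and 11588, 11520 and 10922 TPM in DCBQ, with every DCBQ library above every control library (1.42-fold, log2 difference 0.51, SE 0.042, limma adjusted p = 3.7e-05). MT-ND4 and MT-ND5, the large antiporter-like subunits, rose 1.35-fold from 20470 ± 1018 to 27673 ± 154 TPM and 1.36-fold from 6604 ± 435 to 8996 ± 292 TPM. MT-ND4L, a small membrane subunit whose reading frame shares 7 bases with MT-ND4, rose 1.37-fold from 10778 ± 642 to 14805 ± 666 TPM. MT-ND3, a small membrane subunit, rose 1.46-fold from 4010 ± 90 to 5856 ± 274 TPM and was the least abundant of the 13 in both groups.

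MT-ND6 is the only mRNA annotated on the minus strand. It had 8740, 9296 and 7417 TPM in control and 13132, 12316 and 12618 TPM in DCBQ, a 1.50-fold rise (log2 difference 0.59, SE 0.080, limma adjusted p = 0.00046). The DCBQ libraries were all above the controls, among which replicate 3 was the lowest. Its level was 62.9% ± 6.0 of the mean of the 12 plus-strand mRNAs in control and 66.7% ± 2.0 in DCBQ, with overlapping groups. MT-ND5 lies next to it on the opposite strand, and the ratio of MT-ND6 to MT-ND5 was 128% ± 6.3 in control and 141% ± 8.5 in DCBQ, also overlapping. As the use of strand in counting is not given, the MT-ND6 values may hold plus-strand RNA. How much of them comes from the minus-strand mRNA was not tested.

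Cytochrome b, encoded by MT-CYB, is the mitochondrially made subunit of complex III, which passes electrons from ubiquinol to cytochrome c. It had 8849, 9208 and 8450 TPM in control and 15126, 14946 and 14858 TPM in DCBQ. The groups were far apart, and the 1.70-fold difference was the largest among the mRNAs (log2 difference 0.76, SE 0.045, limma adjusted p = 6.3e-06).

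The 3 subunits of cytochrome c oxidase, complex IV, all rose as deposited but by unequal amounts. Under quantile normalization MT-CO3 alone was called higher. MT-CO2, which carries the copper site that receives electrons from cytochrome c, had 24512, 25630 and 25294 TPM in control and 41858, 40285 and 40795 TPM in DCBQ (1.63-fold, log2 difference 0.70, SE 0.045, limma adjusted p = 9.4e-06). MT-CO3, a structural subunit, rose 1.50-fold from 11927 ± 84 to 17931 ± 691 TPM. MT-CO1, the catalytic subunit, had 23823, 24170 and 24174 TPM in control and 26658, 27746 and 26696 TPM in DCBQ, only 1.12-fold higher (log2 difference 0.17, SE 0.043, limma adjusted p = 0.011). Its groups did not overlap, and its call was kept in 14 of 17 alternatives, being lost without control replicate 1 (0.16, adjusted p = 0.061), with no expression filter (adjusted p = 0.36) and with a sign change under quantile normalization (-0.092, adjusted p = 0.10). MT-CO1 was at 95.7% ± 1.4 of MT-CO2 in control and 66.0% ± 2.6 in DCBQ.

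The membrane part of ATP synthase, complex V, takes MT-ATP6, which lines the proton channel, and the small subunit MT-ATP8 from a shared transcript. The reading frames overlap by 46 bases, printed here because reads within them belong to both genes, with the start codon of MT-ATP6 and the stop codon of MT-ATP8 in capitals.
MT-ATP8 and MT-ATP6 overlap, chrM:8527-8572, plus strand: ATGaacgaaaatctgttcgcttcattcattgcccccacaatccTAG
MT-ATP6 had 15639, 16016 and 15165 TPM in control and 26457, 25279 and 24894 TPM in DCBQ (1.64-fold, log2 difference 0.71, SE 0.046, limma adjusted p = 1.1e-05). MT-ATP8 rose 1.58-fold, from 12513 ± 298 to 19779 ± 992 TPM, also without overlap between groups. Under quantile normalization the MT-ATP6 call was lost (0.064, adjusted p = 0.35) and MT-ATP8 was still called. The pair kept close proportions, with MT-ATP8 at 80.2% ± 0.33 of MT-ATP6 in control and 77.5% ± 3.8 in DCBQ. MT-ND4L and MT-ND4, also read from a shared transcript, stood at 52.6% ± 0.86 and 53.5% ± 2.6.

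**Figure D2:**
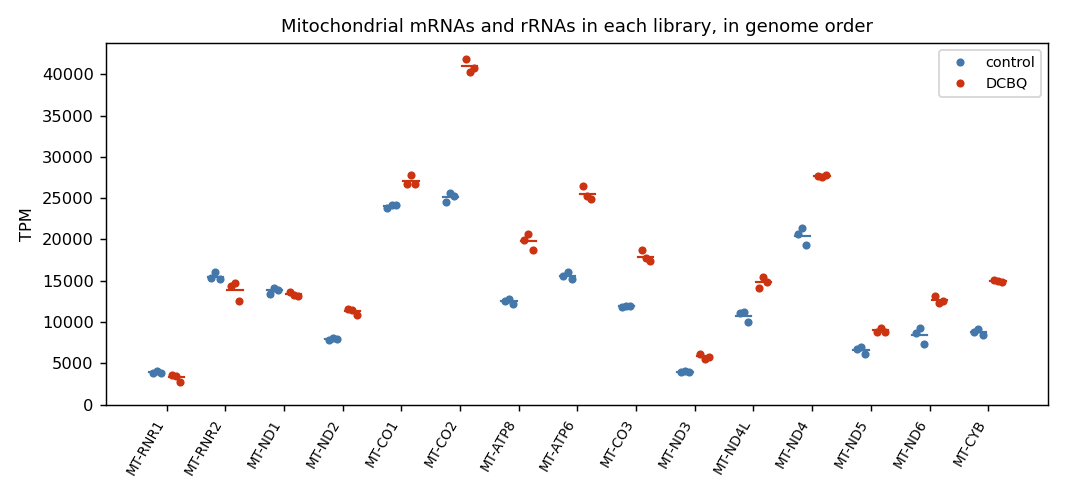
TPM (y axis, linear from 0) of the 2 rRNAs and 13 mRNAs in genome order; points are libraries, short lines the group means, blue control and red DCBQ. The groups overlap only at MT-ND1, and the widest gap is at MT-CO2, from 25146 to 40979 TPM.

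Shares within the summed TPM of the 13 mRNAs do not move with the scaling of nuclear genes, and they show which mRNAs gained or lost against the others. MT-ND1 made up 7.92%, 8.09% and 8.38% of this sum in control and 5.62%, 5.51% and 5.54% in DCBQ. MT-CO1 made up 14.0%, 13.8% and 14.6% in control and 10.9%, 11.5% and 11.2% in DCBQ. These were the 2 mRNAs whose share was lower without overlap. The 5 whose share was higher without overlap were MT-CO2 (14.8% ± 0.41 to 17.0% ± 0.29), MT-ATP8 (7.35% ± 0.026 to 8.21% ± 0.34), MT-ATP6 (9.17% ± 0.045 to 10.6% ± 0.22), MT-CO3 (7.01% ± 0.17 to 7.44% ± 0.20) and MT-CYB (5.19% ± 0.090 to 6.21% ± 0.039). The other 6, all of complex I, overlapped between groups, among them MT-ND2 at 4.69% ± 0.091 and 4.71% ± 0.092. MT-ND1 therefore went from 157% ± 7.0 of MT-CYB in control to 89.5% ± 1.0 in DCBQ, so their order was exchanged.

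**Figure D3:**
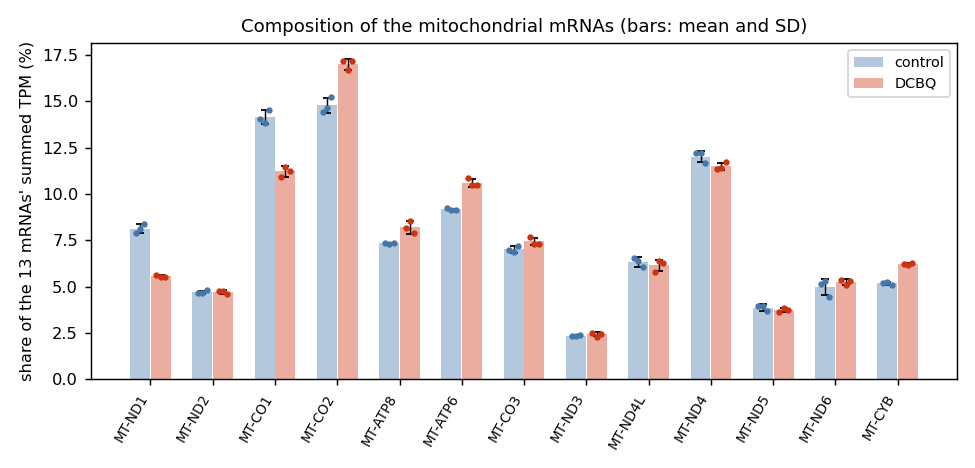
Share of the summed TPM of the 13 mRNAs (%, y axis from 0) held by each mRNA, in genome order; bars are group means, lines the SD and points the libraries. MT-ND1 and MT-CO1 hold less in DCBQ, and MT-CO2, MT-ATP8, MT-ATP6, MT-CO3 and MT-CYB hold more.

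The gene models of 6 mRNAs (MT-ND1, MT-ND2, MT-CO3, MT-ND3, MT-ND4 and MT-CYB) end inside the stop codon, which the poly(A) tail completes. Their log2 differences ran from -0.047 to 0.76, and those of the 7 with a whole final codon from 0.17 to 0.71, so both kinds covered nearly the same range.

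The rRNAs form the small (MT-RNR1) and large (MT-RNR2) subunit of the mitochondrial ribosome and are made ahead of the mRNAs on the plus strand. MT-RNR1 had 3830, 4068 and 3885 TPM in control and 3610, 3508 and 2800 TPM in DCBQ. It was called lower (log2 difference -0.26, SE 0.090, limma adjusted p = 0.042), and DCBQ replicate 3 was the lowest library. This call was kept in 9 of 17 alternatives and was lost without control replicate 1, 2 or 3 (adjusted p = 0.075, 0.11 and 0.081) and under median-of-ratios scaling (-0.015, adjusted p = 0.92). MT-RNR2 had 15287, 16106 and 15162 TPM in control and 14392, 14722 and 12521 TPM in DCBQ, without overlap (log2 difference -0.16, SE 0.067, limma adjusted p = 0.070). Its difference was 0.078 under median-of-ratios scaling, and it was called lower without DCBQ replicate 2 (-0.21, adjusted p = 0.041) and under quantile normalization (-0.61, adjusted p = 0.00095). Both thus lay near the median of all tested genes, -0.21, while most mRNAs rose. As a ratio, the rRNA sum went from 11.4% ± 0.14 of the mRNA sum to 7.13% ± 0.59, without overlap. Mitochondrial rRNAs are known to carry only short A tails, and the values cover what oligo(dT) captured.

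The tRNA genes moved in both directions, which left their sum nearly level. Of the 22, 12 were called higher, 8 lower and 2 neither, against 13.4% higher and 39.5% lower of all tested genes. The lower count is thus near the background. Median-of-ratios scaling called 14 and 3, against 23.7% and 23.2% of all tested genes. Quantile normalization called 12 and 6, against 22.8% and 23.7%. The 12 that rose summed to 6752 ± 723 TPM in control and 11699 ± 521 TPM in DCBQ, and the 8 that fell to 17202 ± 665 and 13126 ± 494 TPM. These genes were grouped by their calls in the same libraries, so the direction of each gap follows from the grouping. The sums give its size alone. Mean levels ran from 56.1 TPM for MT-TW, the tryptophan tRNA, to 5140 TPM for MT-TC in control.

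The contiguous group MT-TH, MT-TS2 and MT-TL2 rose the most of all 37 genes, with control replicate 3 apart from the other controls. MT-TH had 642, 679 and 268 TPM in control and 1565, 1435 and 1576 TPM in DCBQ (2.88-fold, log2 difference 1.64, SE 0.31, limma adjusted p = 0.0025). MT-TS2 had 455, 483 and 214 TPM in control and 1139, 1069 and 1116 TPM in DCBQ, 2.89-fold higher. MT-TL2 had 274, 312 and 194 TPM in control and 723, 724 and 710 TPM in DCBQ, 2.76-fold higher. In each of the 3 genes the DCBQ libraries lay close together and above all controls. Without control replicate 3 the log2 differences were 1.21, 1.24 and 1.29 for MT-TH, MT-TS2 and MT-TL2, and all were still called (adjusted p = 1.5e-05, 7.6e-06 and 1.6e-05).

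MT-TR, MT-TG and MT-TK, the arginine, glycine and lysine tRNAs between MT-CO2 and MT-ND4L, rose as well. MT-TR had 394, 500 and 290 TPM in control and 913, 812 and 964 TPM in DCBQ, 2.27-fold higher (log2 difference 1.21, SE 0.17, limma adjusted p = 0.00055). MT-TG, with 209, 231 and 210 TPM in control and 426, 413 and 415 TPM in DCBQ, rose 1.93-fold. MT-TK had 157, 184 and 73.8 TPM in control and 263, 255 and 271 TPM in DCBQ, so control replicate 3 again stood apart. Its log2 difference of 1.03 (adjusted p = 0.017) was 0.63 without that library (adjusted p = 0.00053), and its call was lost without DCBQ replicate 1 (adjusted p = 0.052), with robust eBayes (0.068) and with no expression filter (0.078).

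Among the other tRNA genes that rose, MT-TE, the minus-strand glutamate tRNA between MT-ND6 and MT-CYB, rose 1.72-fold from 1172 ± 163 to 2018 ± 131 TPM. MT-TT, the threonine tRNA after MT-CYB, rose 1.48-fold from 444 ± 54 to 659 ± 9.2 TPM. The neighbours MT-TI, MT-TQ and MT-TM, which lie between MT-ND1 and MT-ND2 and carry isoleucine, glutamine and methionine, rose 1.29-fold, 1.39-fold and 1.22-fold, to 271 ± 1.3, 198 ± 2.7 and 178 ± 11 TPM. MT-TS1, the serine tRNA for UCN codons, increased 1.27-fold from 2714 ± 94 to 3445 ± 251 TPM. MT-TS1 is annotated antisense to the stretch just after MT-CO1, a stretch that the MT-CO1 mRNA is known to include.

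The falling tRNA genes lay in the first part of the plus-strand order or in the minus-strand group near the light-strand replication origin. MT-TF had 426, 458 and 442 TPM in control and 264, 299 and 233 TPM in DCBQ (log2 difference -0.74, SE 0.083, limma adjusted p = 0.00016). MT-TL1, which holds the binding site of the transcription termination factor MTERF1, had 3348, 3374 and 3393 TPM in control and 2073, 2194 and 2056 TPM in DCBQ (log2 difference -0.68, SE 0.039, limma adjusted p = 5.7e-06). The groups were widely separated in both, and each was called lower in all 17 alternatives. MT-TD, the aspartate tRNA before MT-CO2, decreased to 175 ± 21 TPM from 241 ± 10 (-0.47, limma adjusted p = 0.0016) and was also called lower in all 17. MT-TW had 56.1 ± 11 TPM in control and 39.8 ± 3.8 in DCBQ with overlapping groups, and its lower call was kept in 8 of 17. Leaving out control replicate 2 or 3 or DCBQ replicate 1 or 2 ended it (adjusted p = 0.066, 0.068, 0.071 and 0.059).

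MT-TA, MT-TN, MT-TC and MT-TY, the minus-strand alanine, asparagine, cysteine and tyrosine tRNAs between MT-ND2 and MT-CO1, made up 51.9% ± 0.96 of all tRNA TPM in control and 40.3% ± 1.2 in DCBQ. MT-TC had 4997, 5438 and 4985 TPM in control and 3972, 4097 and 4363 TPM in DCBQ (log2 difference -0.31, SE 0.053, limma adjusted p = 0.0015). MT-TY, MT-TN and MT-TA differed by -0.28, -0.35 and -0.37, and the groups did not overlap for any of the 4. These decreases are near the median of all tested genes, and under median-of-ratios scaling none of the 4 was called (-0.13 to -0.04). MT-TA, MT-TN and MT-TC were still called lower under scaling to the nuclear total (limma adjusted p = 0.0063, 0.0072 and 0.026) and under quantile normalization (0.0017, 0.0028 and 3.8e-05). The MT-TY call was lost under both (0.061 and 0.11). MT-TV, the valine tRNA between the rRNAs, and MT-TP, the minus-strand proline tRNA at the end of the map, did not pass as deposited (0.098, adjusted p = 0.33, and 0.027, adjusted p = 0.63). Both were called higher under median-of-ratios scaling (0.34 and 0.27), MT-TP also under scaling to the nuclear total (0.16), and MT-TV also without DCBQ replicate 3 (0.20, adjusted p = 0.0087).

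**Figure D4:**
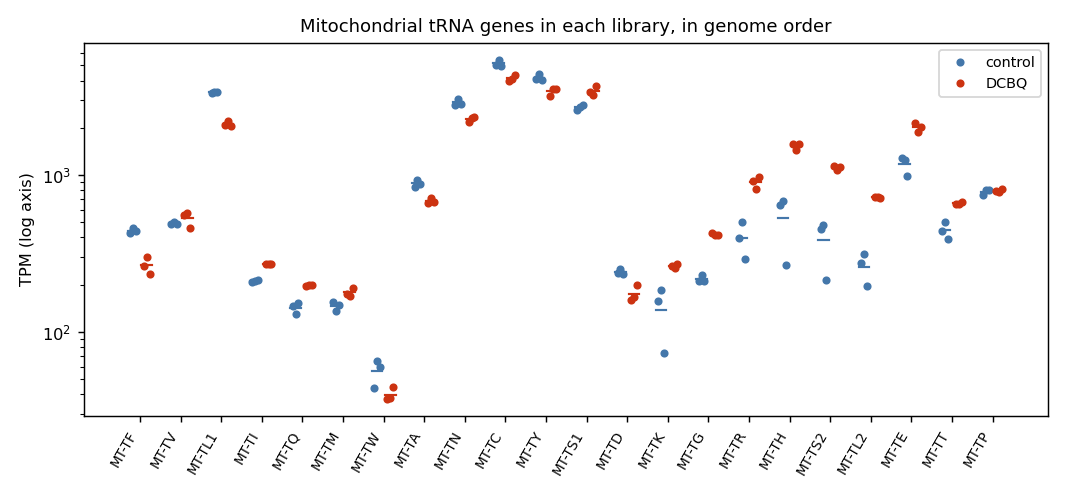
TPM (y axis, logarithmic) of the 22 tRNA genes in genome order; points are libraries, short lines the group means, blue control and red DCBQ. From MT-TK on, most genes are higher in DCBQ, and control replicate 3 is the low blue point at MT-TK, MT-TR, MT-TH, MT-TS2 and MT-TL2.

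The calls differed by position on the map, with both directions before MT-CO2 and higher calls alone from it on. Among the 18 genes that start before MT-CO2, 6 were called higher and 9 lower, with a median log2 difference of -0.21, close to that of all tested genes. Of the 19 genes from MT-CO2 on, 18 were called higher and 0 lower, with a median of 0.70 and a range from 0.027 (MT-TP, the gene that did not pass) to 1.64. The boundary was chosen after the values had been seen. Under median-of-ratios scaling the counts were 7 and 3 before MT-CO2 and 19 and 0 from it on, and under quantile normalization 5 and 8 against 13 and 0. For the 28 plus-strand genes, the log2 difference and the distance from the start of MT-TF had Pearson r = 0.70 and Spearman rho = 0.73, across genes that share libraries and, in part, precursors. Within the 13 mRNAs the same measures were 0.54 and 0.28, where the mRNAs from MT-CO2 to MT-ND5 lay between 0.44 and 0.71 with the lower values toward MT-ND5, and MT-CYB stood at 0.76. Over all 37 genes Pearson r with the difference was 0.62 for distance, -0.13 for GC content and -0.03 for length. Within the 13 mRNAs GC content and length each had r = -0.37 (rho -0.18 and -0.41). Within the 22 tRNA genes r was 0.62 for distance, -0.17 for GC content and -0.39 for length.

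By strand, 20 of the 28 plus-strand genes were higher and 5 lower, and of the 9 minus-strand genes 4 were higher and 4 lower. Of all tested genes 13.4% were higher and 39.5% lower. These counts are not ranked against the split by position, whose boundary was chosen after the values had been seen. The minus-strand counts were 5 and 0 under median-of-ratios scaling, 5 and 3 under scaling to the nuclear total, and 3 and 3 under quantile normalization. As deposited, the minus-strand genes that rose were MT-TQ, MT-TS1, MT-ND6 and MT-TE, and those that fell were the 4 tRNAs between MT-ND2 and MT-CO1. These 4 are neighbours that lie before MT-CO2, so strand and position cannot be told apart for them.

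**Figure D5:**
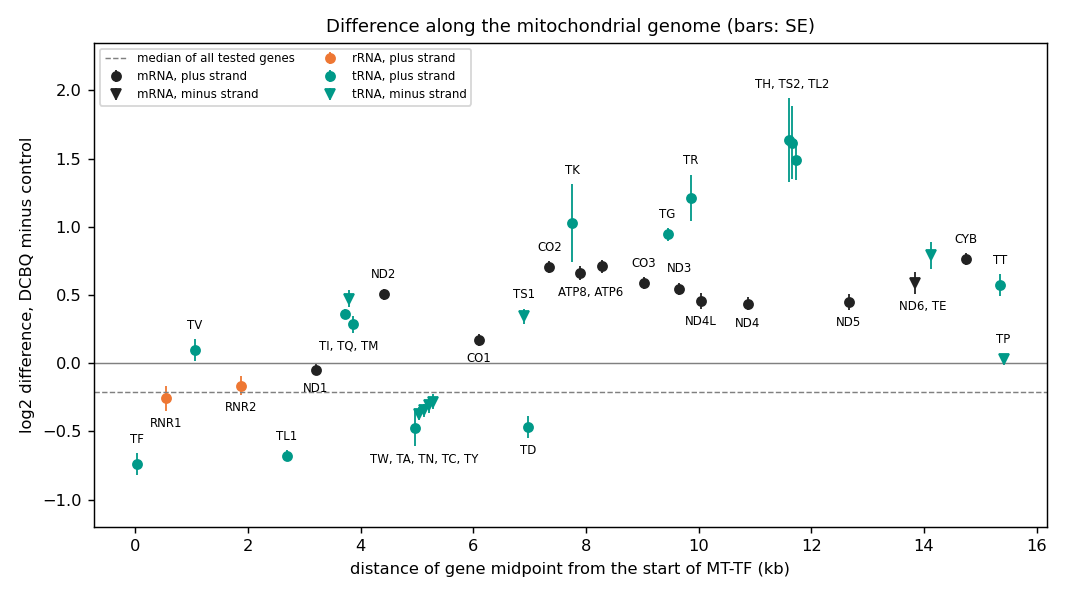
Log2 difference (DCBQ minus control on log2(TPM + 1), y axis, bars SE) against the distance of each gene's midpoint from the start of MT-TF (kb, x axis), with MT- left off the names. Circles are plus-strand and triangles minus-strand genes; the dashed line is the median of all tested genes, -0.21, and all 19 genes from MT-CO2 on lie above 0.

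Since tRNAs sit between longer RNAs, each tRNA level was also set against the adjacent mRNA or rRNA of the same library. MT-TH was at 3.10%, 3.18% and 1.38% of MT-ND4 in control and at 5.65%, 5.22% and 5.66% in DCBQ, so all DCBQ libraries were above the controls. MT-TL2 was at 4.07%, 4.49% and 3.18% of MT-ND5, the mRNA that follows it, in control and at 8.18%, 7.76% and 8.04% in DCBQ. MT-TR went from 9.83% ± 2.5 to 15.3% ± 1.0 of MT-ND3, and MT-TG from 5.40% ± 0.19 to 7.14% ± 0.23 of the same mRNA. None of these 4 ratios overlapped between groups.

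Among the other tRNA genes the ratios went in both directions. MT-TL1 went from 21.7% ± 0.73 of MT-RNR2 and 24.4% ± 0.54 of MT-ND1 to 15.2% ± 1.1 and 15.7% ± 0.67, and MT-TF from 11.3% ± 0.12 of MT-RNR1 to 8.05% ± 0.65. MT-TD went from 0.957% ± 0.033 to 0.427% ± 0.054 of MT-CO2, and MT-TC from 21.4% ± 1.0 to 15.3% ± 0.87 of MT-CO1. At the end of the map MT-TP went from 8.89% ± 0.58 to 5.33% ± 0.14 of MT-CYB and MT-TT from 5.02% ± 0.40 to 4.40% ± 0.099. All of these were lower in DCBQ without overlap.

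The opposite was seen for MT-TV, which went from 12.6% ± 0.17 to 16.1% ± 0.51 of MT-RNR1 and from 3.18% ± 0.051 to 3.82% ± 0.13 of MT-RNR2. MT-TI, MT-TQ and MT-TM were also higher against MT-ND1, at 1.33, 1.43 and 1.26 times the control ratio. None of these ratios overlapped between groups. Against MT-ND2, on their other side, MT-TI was lower without overlap (2.63% ± 0.042 and 2.39% ± 0.073), and MT-TQ and MT-TM overlapped. The ratios of MT-TE to MT-CYB (13.2% ± 1.4 and 13.5% ± 0.80) and of MT-TK to MT-CO2 (0.550% ± 0.23 and 0.642% ± 0.018) overlapped too. Against MT-ND6, its neighbour on the same strand, MT-TE was higher without overlap (13.8% ± 0.76 and 15.9% ± 0.53). MT-TS1 was higher against MT-CO1 (11.3% ± 0.31 and 12.8% ± 1.2) and lower against MT-CO2 (10.8% ± 0.25 and 8.41% ± 0.61), both without overlap.

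Nuclear copies of mitochondrial sequence, which can take reads from the 37 genes, were at very low levels. The table lists 417 such rows by symbol, 324 of them at 0 in every library, and their summed level was 10.4 to 16.8 TPM a library against 209228 to 287677 TPM for the mitochondrial genes. Only MTATP6P29 and MTND3P23 had a mean of at least 1 TPM, and neither was called. MTATP6P29 had 1.52 ± 0.70 TPM in control and 0.996 ± 1.0 in DCBQ, and MTND3P23 1.67 ± 1.0 and 0.472 ± 0.28. MTND4P15 and MTCO1P12, the next most abundant, were at 1.33 ± 0.23 and 0.769 ± 0.34 TPM in control and 0.528 ± 0.33 and 0.775 ± 0.031 TPM in DCBQ. How reads that match both a copy and the mitochondrial genome were assigned is not given in the sources used here.

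Nuclear genes supply the enzymes that copy, cut, modify and degrade mitochondrial RNA, and several of the list counts changed with the scaling. Of 10 transcription genes 1 was higher and 4 lower, with a median log2 difference of -0.22, beside the 39.5% called lower among all tested genes. Median-of-ratios scaling gave 3 higher and 1 lower, where it called 23.7% of all tested genes higher and 23.2% lower. MTERF3, of the mitochondrial termination factor family, fell from 36.7 ± 0.87 to 24.2 ± 0.68 TPM (-0.58, limma adjusted p = 9.8e-05). POLRMT, the mitochondrial RNA polymerase, fell from 25.4 ± 1.3 to 18.4 ± 1.5 TPM (-0.45, limma adjusted p = 0.0022), a call lost under median-of-ratios scaling (-0.22, adjusted p = 0.077). TEFM, the elongation factor, was called higher, 1.16-fold at 19.4 ± 1.0 TPM (adjusted p = 0.048), and this call was kept in 9 of 17 alternatives. It was lost without control replicate 1, 2 or 3 (adjusted p = 0.10, 0.13 and 0.090) and without DCBQ replicate 1 or 3 (both 0.11).

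Of 9 tested genes of RNA end processing 3 were higher and 3 lower, with a median of 0.12, against 13.4% and 39.5% of all tested genes. With any library left out 1 or 2 were higher. FASTKD5, needed for processing at junctions without tRNAs, rose 1.54-fold from 15.7 ± 0.71 to 24.2 ± 0.80 TPM. HSD17B10, a subunit of mitochondrial RNase P, rose 1.18-fold to 106 ± 9.5 TPM, with overlapping groups, and its call was lost without control replicate 2 or 3 (adjusted p = 0.11 and 0.10) or DCBQ replicate 1 or 3 (0.11 and 0.086). TRNT1, which adds the CCA end to tRNAs, fell from 50.3 ± 1.9 to 38.3 ± 0.93 TPM, and under median-of-ratios scaling it was not called (adjusted p = 0.082). PTCD1, a pentatricopeptide repeat protein, fell from 18.4 ± 1.2 to 12.3 ± 0.33 TPM.

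Of 15 genes of RNA stability, polyadenylation and decay 0 were higher and 7 lower, near the background of 39.5% lower, and their median of -0.21 was that of all tested genes. Under median-of-ratios scaling 3 and 5 were called (median 0.032). Both partners of the mitochondrial degradosome, which breaks RNA down, were among the lower genes under each of the 3 other scalings. The helicase gene SUPV3L1 fell from 50.3 ± 2.2 to 26.2 ± 1.2 TPM (-0.92, SE 0.063, limma adjusted p = 1.4e-05). The polynucleotide phosphorylase gene PNPT1 fell from 34.1 ± 1.8 to 18.6 ± 0.98 TPM (-0.84, SE 0.072, limma adjusted p = 4.1e-05). No library of either group overlapped for either gene.

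Of 20 tested genes of tRNA and rRNA modification 1 was higher and 12 lower, with a median of -0.33, against 13.4% and 39.5% of all tested genes. Under median-of-ratios scaling 4 and 5 were called, near that scaling's 23.7% and 23.2% of all tested genes. TRMU, which thiolates tRNA, rose 1.30-fold to 76.2 ± 1.5 TPM. QTRT1, a subunit of the queuosine transferase, fell from 115 ± 1.1 to 64.6 ± 3.4 TPM, and the pseudouridine synthase gene RPUSD3 from 121 ± 11 to 75.2 ± 1.8 TPM. These 3 calls held under each of the 3 other scalings.

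Of 21 genes of mitochondrial DNA replication and maintenance 2 were higher and 13 lower (median -0.35), against the same 13.4% and 39.5%. Under median-of-ratios scaling 4 and 6 were called, again near 23.7% and 23.2%. FEN1, a flap nuclease that also acts in the nucleus, rose 1.52-fold to 147 ± 4.3 TPM and the nuclease gene MGME1 1.17-fold to 95.0 ± 5.1 TPM. RNASEH1, which removes RNA primers, fell from 33.2 ± 0.34 to 20.7 ± 1.1 TPM and the pyrimidine nucleotide carrier SLC25A33 from 6.58 ± 0.036 to 3.15 ± 0.16 TPM. Among 7 tested nuclear regulators 1 was higher and 5 lower (median -0.66), counts that were the same under all 3 other scalings. ESRRA, an orphan receptor that drives respiratory genes, rose 1.23-fold to 33.8 ± 0.96 TPM. The transcription factor gene NRF1 fell from 28.8 ± 4.4 to 15.1 ± 2.2 TPM and the coactivator gene PPRC1 from 74.4 ± 2.8 to 44.0 ± 2.4 TPM. The mitochondrial DNA copy number was not analysed here.

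The nuclear subunits that complete the same complexes were called higher at shares above the 13.4% background. In complex I 17 of 35 tested were higher and 5 lower (median 0.21), and in complex III 3 of 9 and 0 (0.12). The 5 lower calls of complex I were 1 without control replicate 1, 2 without control replicate 3, 3 without control replicate 2 or DCBQ replicate 2 or 3, and 0 under median-of-ratios scaling and quantile normalization. In complex IV 8 of 11 were higher and 0 lower (0.29), and in complex V 10 of 18 and 2 (0.32). The mitochondrial mRNAs of complexes I, III, IV and V had medians of 0.46, 0.76, 0.59 and 0.69. Median-of-ratios scaling called 25, 7, 11 and 14 of the nuclear subunits of these complexes higher, against 23.7% of all tested genes.

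In complex I, the accessory subunit genes NDUFA1 and NDUFS5 rose 1.94-fold and 1.73-fold, to 95.1 ± 6.8 and 184 ± 13 TPM. NDUFV3 fell from 20.1 ± 0.96 to 14.5 ± 0.73 TPM and NDUFS1, which carries iron-sulfur clusters, from 28.6 ± 0.38 to 24.6 ± 0.78 TPM, and neither was called under median-of-ratios scaling, where NDUFS1 stood at 0.026. The NDUFS1 call was kept in 10 of 17 alternatives and was lost without control replicate 1 or 3 or DCBQ replicate 3 (adjusted p = 0.063, 0.058 and 0.059). In complex III UQCRH and UQCR10 rose 1.46-fold and 1.56-fold, and in complex IV COX6C and COX6B1 rose 1.44-fold and 1.62-fold. In complex V ATP5ME and ATP5MF, of the membrane part, rose 1.55-fold and 1.71-fold. DMAC2L fell from 16.8 ± 0.51 to 9.94 ± 0.37 TPM, and ATP5MC2, a gene for the c-ring, from 136 ± 11 to 104 ± 6.0 TPM, the latter not called under median-of-ratios scaling (adjusted p = 0.12). The other genes for the c-ring, ATP5MC1 and ATP5MC3, were called higher (log2 differences 1.06 and 0.78, limma adjusted p = 3.5e-05 and 0.0011).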

How the data were processed

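The authors deposited a table of TPM for 60624 Ensembl gene identifiers and 6 libraries. The build was hg38, per the submitters' processing notes, which also name HISAT2 2.2.1 and StringTie 2.1.7 and, apart from these, Trimmomatic 0.38, DESeq2 1.34.0 and FastQC. The sources used here do not give the tool behind the TPM values, the annotation or the use of strand. Symbols came from a table of identifiers (42013) and GENCODE 29 (762), which also gave coordinates, strands and sequences.

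The 16734 genes whose mean reached 1 TPM entered limma 3.58.1 (R 4.3.3) as log2(TPM + 1) (eBayes with trend, group as the only term, all 6 libraries, two-sided, Benjamini-Hochberg over all tested genes, threshold 0.05). The test was first checked on simulated data. Fold values are ratios of mean TPM. Shares, ratios between RNAs and sums over members have no test. Anticodons were located by their letters and the flanking stem. All MT- mRNAs, rRNAs and tRNAs are named. Of each nuclear list, the 2 called genes of smallest p in each direction are named, and of nuclear copies the 4 with the highest mean. ATP5MC1 and ATP5MC3 were added beside ATP5MC2. The members and lists were chosen with earlier results of these data known. Alternatives were pseudocounts 0.1 and 5, no filter or a mean of 5, 3 other scalings, 3 other fits, a replicate block and each library left out; for the nuclear lists they were added after seeing the data.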

Additional observations from a re-analysis of the deposited data

How the results depend on the processing

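Of the 37 mitochondrial genes, 20 kept their direction and their side of the threshold in all 17 alternatives. Other scalings moved the balance of calls over all genes: quantile normalization gave 3814 higher and 3966 lower, and median-of-ratios scaling 3973 higher and 3888 lower, against 2247 and 6610 as deposited (74.6% lower, then 51.0% and 49.5%, and 61.7% under scaling to the nuclear total). The number of mitochondrial genes called lower went from 9 to 3 under median-of-ratios scaling (MT-TF, MT-TL1 and MT-TD). Signs were reversed for MT-CO1 under quantile normalization (-0.092), for MT-ND1 under median-of-ratios scaling (0.20) and scaling to the nuclear total (0.087), for MT-RNR2 under median-of-ratios scaling (0.078), and for MT-TP without control replicate 1 (-0.010, with 0.047 as the highest value when a library was left out). Quantile normalization holds the most abundant row, MT-CO2, at a difference of 0 by construction. Leaving out a library gave 31 to 34 called mitochondrial genes, 23 to 25 of them higher and 7 to 9 lower, and 7678 to 8436 calls over all genes. The number of mRNAs whose share did not overlap was 7 of 13 as reported and 7 to 10 with a library left out; without control replicate 3 the 10 were 5 higher and 5 lower. With the replicate number as a block, 34 mitochondrial genes were called, 24 higher and 10 lower, with MT-RNR2 added (adjusted p = 0.036). Same-numbered libraries correlated at -0.037, 0.045 and 0.046 in their deviations from group means, so the numbers were not taken as pairs. The depth is unknown, so no counting interval is given.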
